A study of Oryctolagus cuniculus with 6 samples.

Results

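Small leucine-rich proteoglycans are secreted matrix proteins that carry glycosaminoglycan chains on a protein core built of leucine-rich repeats. The 4 genes described here are LUM (lumican), DCN (decorin), BGN (biglycan) and FMOD (fibromodulin). Their probes were all non-control probes of a rabbit oligonucleotide array whose gene name was one of these symbols or whose description named one of these proteins. That rule found 4 of 10667 named genes, with 13 of 43603 probes: 4 for LUM, 6 for DCN, 2 for BGN and 1 for FMOD. No measured value entered the rule, but the 4 genes were chosen with earlier results of these data known. Shares over all probes are therefore set beside theirs as a description. Total RNA came from smooth muscle cells that were freed from the basilar artery of female rabbits (New Zealand White). In 3 rabbits both common carotid arteries were ligated, so that more blood flows through the basilar artery, and in 3 sham rabbits they were only exposed. All animals were killed on day 5, and the artery was perfused with 0.4 mg/ml elastase and 1 mg/ml collagenase for 45 min before the cells were shaken loose by trituration. The labels give neither age nor genotype, and they do not say if 1 rabbit or pooled animals gave the RNA of an array, so every n counts arrays read as 1 rabbit each, and p-values measure the spread between these arrays.

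As background, decorin and biglycan carry chondroitin or dermatan sulfate chains, whereas lumican and fibromodulin carry keratan sulfate. Decorin, lumican and fibromodulin bind collagen fibrils and limit how thick they grow, decorin and biglycan bind transforming growth factor beta, and soluble biglycan is a ligand of Toll-like receptors in macrophages. In arteries these proteins lie mainly in the adventitia and among the muscle layers, and both fibroblasts and smooth muscle cells make them.

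The probes differ in which stretch of the transcript they read, and the sequences are shown because the results below differ between stretches. On oryCun2, the build of the array files, LUM and DCN lie on the minus strand of chromosome 4. The 5 upstream DCN probes tile a stretch from base 477 to base 665 of the transcript, and each begins with 21 to 30 bases (in capitals) of the probe before it, so they are not independent readings. Those from bases 507 and 537 cross an exon junction, since 60 bases span 568 bases of the genome.
DCN from base 477 (chr4:70372749-70372808): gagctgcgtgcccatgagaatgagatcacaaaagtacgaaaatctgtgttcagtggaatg
DCN from base 507 (chr4:70372211-70372778): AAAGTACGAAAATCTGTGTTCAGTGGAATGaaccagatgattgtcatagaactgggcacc
DCN from base 537 (chr4:70372181-70372748): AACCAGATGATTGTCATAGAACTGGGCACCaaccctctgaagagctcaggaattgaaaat
DCN from base 576 (chr4:70372142-70372201): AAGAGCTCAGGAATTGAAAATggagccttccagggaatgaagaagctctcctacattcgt
DCN from base 606 (chr4:70372112-70372171): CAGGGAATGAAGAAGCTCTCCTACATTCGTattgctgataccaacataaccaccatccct
The sixth DCN probe starts far downstream, at base 1493 (chr4:70357924-70357983), and has a stop codon in all 3 reading frames. Of the LUM probes, one reads from base 958 and one from base 1051, where the capitals mark a stop codon at the end of the probe.
LUM from base 958 (chr4:70316274-70316333): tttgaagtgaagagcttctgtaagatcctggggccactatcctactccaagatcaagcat
LUM from base 1051 (chr4:70316181-70316240): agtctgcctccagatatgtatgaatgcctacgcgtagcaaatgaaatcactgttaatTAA
The other LUM probes, from base 1592 (chr4:70315640-70315699) and base 1623 (chr4:70315609-70315668), lie further downstream and share 29 bases, so they too are one reading in part.
LUM stretch shared by both downstream probes: gtagccccctagtattatgggaccagtaa
The BGN probes have no position in the files. The downstream one begins with bases that reach a stop codon, in capitals, in the frame of its first base, and only these 27 bases of it are shown.
BGN from base 636: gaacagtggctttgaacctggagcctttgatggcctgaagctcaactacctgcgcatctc
BGN from base 1129, first 27 bases: atccagttcggcaactacaaaaagTAG
The FMOD probe lies on the plus strand of chromosome 16.
FMOD from base 322 (chr16:68443237-68443296): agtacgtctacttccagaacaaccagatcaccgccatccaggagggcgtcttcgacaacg

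Values are log2 processed signals minus the 75th percentile of the array, so 0 is the signal at that percentile. On the 6 arrays 58.7% to 63.7% of probes were well above background and no spot was saturated. All 13 proteoglycan probes were well above background on all 6 arrays, so each of them was tested. With 3 arrays a group, precision is limited throughout. Slide 1 carried the sham arrays and slide 2 the ligated ones, so that the effects of slide and of ligation cannot be told apart. After scaling, 5 of the 10 spike-in controls were lower on each ligated array than on any sham array, and the median difference over the controls was -0.81. Sham 2 and sham 3 lay close together: the SD of their difference over the 27410 tested probes was 0.38, against 0.61 to 1.51 for the other pairs of arrays. Sham 1 differed more from sham 2 (SD 1.28) than from ligated 2 (SD 0.92). The calls on the 4 genes and the counts on gene lists are therefore given also with sham 2 and sham 3 averaged into 1 sample. The smooth muscle myosin MYH11 read 6.90 ± 0.65 and the actin ACTA2 8.11 ± 0.66 in sham (SD, n = 3), CNN1 had no probe with its symbol, and transcripts of blood, endothelium and fibroblasts were also read.

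Ligated and sham arteries were compared to ask how raised flow changes the transcripts. LUM and BGN rose on every probe, DCN rose on 4 of its 6 probes, and FMOD did not pass the test. At a limma p below 0.05, adjusted by Benjamini-Hochberg across the 27410 tested probes, 10 of the 13 probes were higher in ligated arteries and 0 were lower. Of all tested probes 8.35% passed, 5.71% higher and 2.65% lower. The log2 changes of the 13 probes ran from -0.83 to 2.60 with a median of 1.04, beside a median of 0.01 over all tested probes. In 11 of the 13 probes every ligated array lay above every sham array, which held for 17.6% of tested probes, while 17.1% lay wholly below. When sham 2 and sham 3 were averaged, 2 of the 13 probes rose, both LUM, where 2.17% of tested probes passed, 1.88% higher and 0.292% lower. The same 2 probes passed without sham 2 (2.17% of tested probes, 1.88% higher and 0.292% lower) and without sham 3 (2.01%, 1.76% higher and 0.255% lower). In bulk RNA, more cells of a type and more RNA per cell cannot be told apart.

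**Figure D1:**
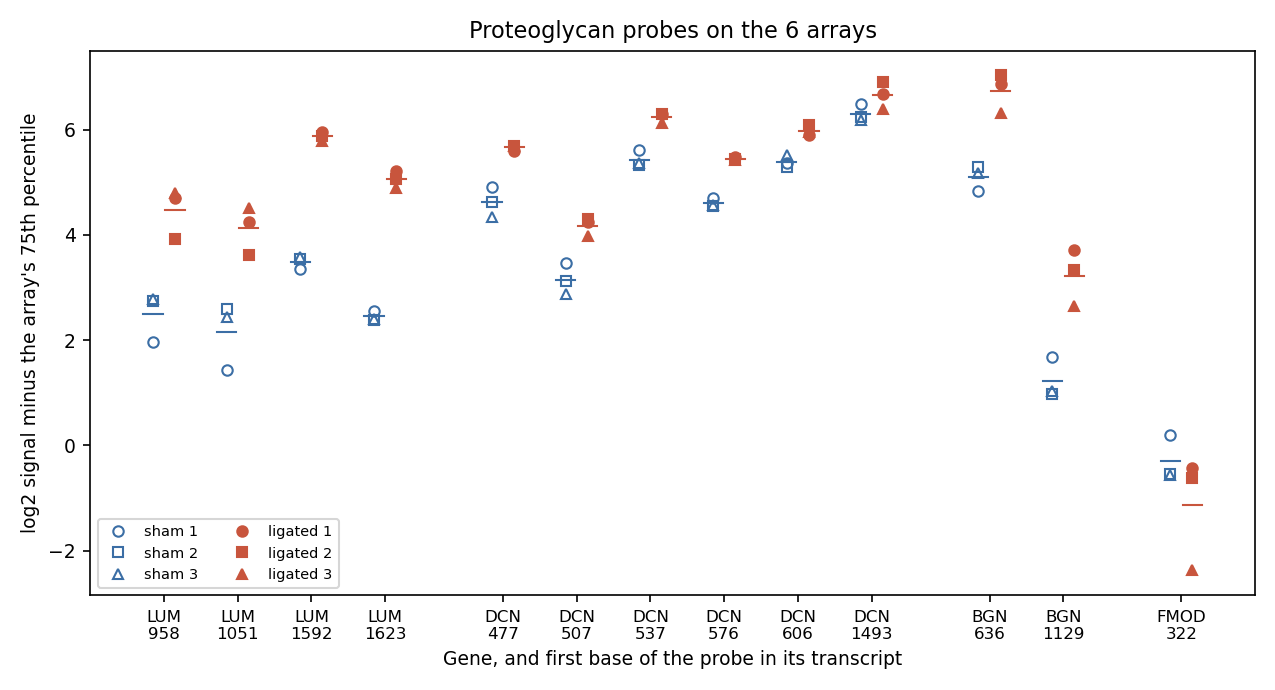
Normalised log2 signal (vertical axis) of each of the 13 probes, ordered by gene and by the first base of the probe in its transcript (horizontal axis). Each point is 1 array, open for sham and filled for ligated, and short lines are group means of 3 arrays. Groups overlap for the downstream DCN probe (base 1493) and for FMOD, and are apart for the other 11 probes.

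LUM, whose product binds collagen fibrils and is a main proteoglycan of the cornea, had the largest change of the 4 genes on its brightest probe. The downstream probe from base 1592, the brightest for LUM, read 3.35, 3.55 and 3.58 on sham 1, 2 and 3 and 5.96, 5.87 and 5.78 on ligated 1, 2 and 3. The arrays of each group lay within a narrow band and the bands were far apart. The log2 change was 2.38 ± 0.18 (SE), a 5.21-fold rise (adjusted p = 0.00233 by limma). From base 1623 the sham arrays read 2.56, 2.39 and 2.40 and the ligated arrays 5.21, 5.06 and 4.90. That is a change of 2.60 ± 0.18 (SE), or 6.08-fold (limma adjusted p = 0.00185). Both downstream probes passed without any 1 array (highest adjusted p 0.0197 and 0.0186) and with sham 2 and sham 3 averaged (adjusted p = 0.0168 and 0.0164).

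The upstream LUM probes also rose, with a wider spread between arrays. From base 958 the sham arrays read 1.97, 2.75 and 2.79 and the ligated arrays 4.70, 3.93 and 4.79, a change of 1.97 ± 0.34 (SE, limma adjusted p = 0.0210). From base 1051 they read 1.44, 2.59 and 2.44 in sham and 4.25, 3.61 and 4.52 in ligated arteries, a change of 1.97 ± 0.39 (SE, limma adjusted p = 0.0302). On both probes sham 1 was the lowest sham array and ligated 2 the lowest ligated array, whereas ligated 3 was the lowest ligated array on both downstream probes. Relative to the downstream probes and to the sham mean, the upstream pair stood at -0.61 on sham 1 and at 0.34 and 0.27 on sham 2 and 3. On ligated 1, 2 and 3 it stood at -0.47, -1.05 and -0.05, so that the upstream and downstream probes differed by array and not only by group. Neither upstream probe passed with sham 2 and sham 3 averaged (adjusted p = 0.0655 and 0.0765). The call from base 958 ended without sham 2, sham 3 or ligated 1 (highest adjusted p 0.0728) and the call from base 1051 ended without any 1 array except sham 1 (highest adjusted p 0.0961).

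BGN, a class relative of decorin that sits near cell surfaces and binds growth factors, rose on both probes. Its brighter probe, from base 636, read 4.84, 5.29 and 5.18 in sham and 6.87, 7.03 and 6.32 in ligated arteries. Every ligated array was above every sham array, with ligated 3 the lowest of them. The log2 change was 1.64 ± 0.26 (SE), a 3.11-fold rise (limma adjusted p = 0.0159). The probe from base 1129, at the end of the reading frame, read 1.68, 0.98 and 1.04 in sham and 3.71, 3.33 and 2.65 in ligated arteries. Its change was 1.996 ± 0.34 (SE), or 3.99-fold (limma adjusted p = 0.0202). Sham 1 was the lowest sham array on the first probe and the highest on the second. Both calls ended without sham 2, sham 3, ligated 1 or ligated 2, where the adjusted p rose to at most 0.0699 and 0.0888 and the changes ran from 1.495 to 1.73 and from 1.76 to 1.94. With sham 2 and sham 3 averaged the changes were 1.71 and 1.88 (adjusted p = 0.0615 and 0.0844).

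DCN, which binds collagen fibrils and holds transforming growth factor beta in the matrix, changed by an amount that depended on the probe. The downstream probe, from base 1493, was the brightest. It gave 6.48, 6.24 and 6.18 in sham and 6.67, 6.91 and 6.39 in ligated arteries. Sham 1 lay above ligated 3, so the groups overlapped. Its change was 0.36 ± 0.21 (SE), with a 95% interval from -0.15 to 0.86, and was not past the threshold (limma adjusted p = 0.325). Without ligated 2 it was 0.23, with median centring 0.16 and with quantile normalization 0.80, and it passed in none of these. The probe furthest upstream, from base 477, read 4.91, 4.63 and 4.33 in sham and 5.60, 5.70 and 5.69 in ligated arteries. There the groups did not overlap, and the change was 1.04 ± 0.21 (SE), or 2.05-fold (limma adjusted p = 0.0327). The next probe, from base 507, read 3.46, 3.13 and 2.87 in sham and 4.25, 4.30 and 3.98 in ligated arteries, a change of 1.02 ± 0.22 (SE, limma adjusted p = 0.0415).

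The other 3 tiled DCN probes stood between these and the downstream probe. The probe from base 537 read 5.61, 5.34 and 5.36 in sham and 6.30, 6.30 and 6.12 in ligated arteries, a change of 0.81 ± 0.18 (SE, limma adjusted p = 0.0451). From base 576 the values were 4.70, 4.55 and 4.57 in sham and 5.49, 5.44 and 5.42 in ligated arteries, a change of 0.84 ± 0.17 (SE, limma adjusted p = 0.0318). The last of the tile, from base 606, read 5.37, 5.28 and 5.51 in sham and 5.89, 6.08 and 5.96 in ligated arteries. Its groups did not overlap, yet its change of 0.59 ± 0.18 (SE) was not past the threshold (limma adjusted p = 0.0897). None of the DCN calls held with sham 2 and sham 3 averaged: the changes were then 0.31 to 0.97, with adjusted p from 0.125 to 0.570. The 4 calls also ended without sham 2, sham 3, ligated 1, ligated 2 or ligated 3, and that from base 537 also without sham 1. Over all 6 leave-outs the changes of the 4 probes ran from 0.76 to 1.18 and the highest adjusted p was 0.180.

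Along the transcript the DCN changes were 1.04, 1.02, 0.81, 0.84, 0.59 and 0.36. The sham mean signals, which depend on the probe as well as on the transcript, were 4.62, 3.15, 5.43, 4.61, 5.39 and 6.30, so that probes with more signal lay, for the most part, further downstream. The part of brightness and of position in these differences was not tested. Each tiled probe was set against the downstream probe by the difference of the 2 log2 values on each array. From base 477 that difference was 0.68 higher in ligated than in sham arrays, from base 507 it was 0.67 higher, from base 537 0.45, from base 576 0.48 and from base 606 0.23. For the first 4 the groups did not overlap (exact two-sided permutation test, p = 0.10, adjusted p = 0.125 over 5 comparisons), and for the last they did (exact p = 0.30). With 3 arrays against 3 no exact p below 0.10 can be reached, so none of these differences could pass. Averaging sham 2 and sham 3 gave differences of 0.28 to 0.66.

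**Figure D2:**
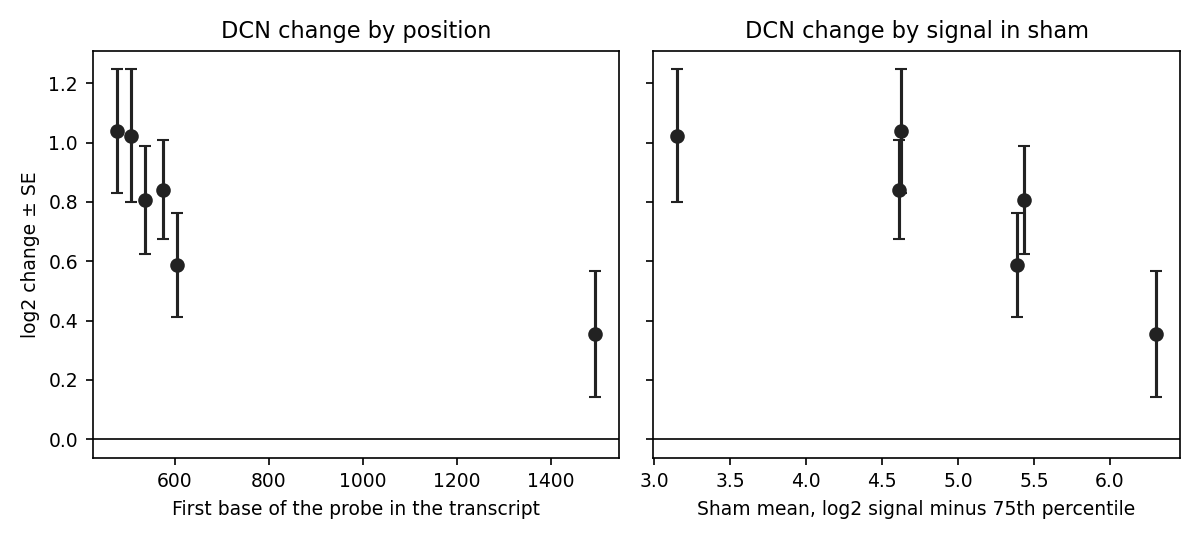
Log2 change (ligated minus sham, vertical axis) of the 6 DCN probes, with the SE of the fit as bars, against the first base of the probe in the transcript (left) and against the sham mean signal (right). The change is 1.04 at base 477 and 0.36 at base 1493, and the probe with the smallest change is the brightest in sham at 6.30.

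FMOD, a collagen-binding relative of lumican known mainly from tendon and cartilage, had 1 probe. It read 0.20, -0.54 and -0.56 in sham and -0.42, -0.62 and -2.37 in ligated arteries. Ligated 3 stood well below the other arrays, and ligated 1 lay within the range of the sham arrays. The change was -0.83 ± 0.54 (SE), not past the threshold (limma adjusted p = 0.363), with a 95% interval from -2.14 to 0.47. Without ligated 3 it was -0.22, and with sham 2 and sham 3 averaged it was -0.96 (adjusted p = 0.465). These arrays bound the FMOD change only loosely.

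**Figure D3:**
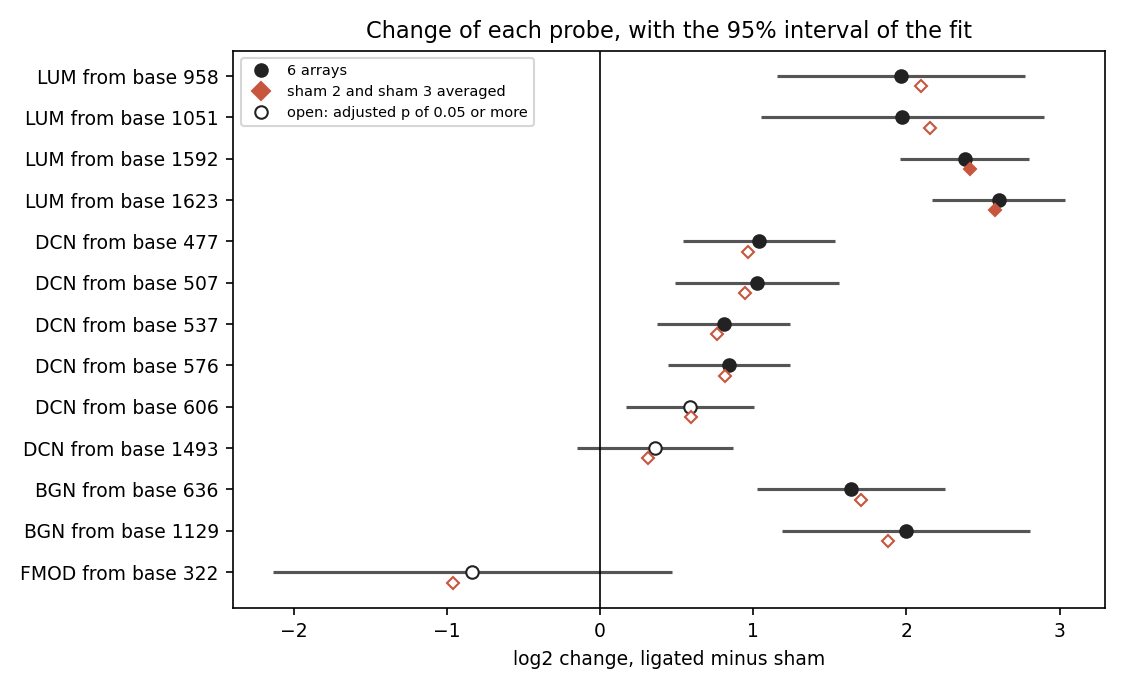
Log2 change, ligated minus sham (horizontal axis), of each probe. Black circles give the fit to 6 arrays with its 95% interval, diamonds the change with sham 2 and sham 3 averaged, and filled symbols an adjusted p under 0.05. All 4 LUM and both BGN circles are filled, and of the diamonds those of the LUM probes from bases 1592 and 1623.

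Whether the 4 genes changed by different amounts was tested on the brightest probe of each, as the difference of 2 log2 values per array, over 6 pairs. LUM rose by 2.03 ± 0.21 (SE) more than DCN changed, by 0.74 ± 0.19 more than BGN and by 3.22 ± 0.66 more than FMOD changed. The change of BGN was above that of DCN by 1.28 ± 0.24 and above that of FMOD by 2.47 ± 0.57, and the DCN change was above the FMOD change by 1.19 ± 0.52. In all 6 pairs the sham and ligated differences did not overlap, and each gave an exact two-sided permutation p of 0.10 (adjusted p = 0.10), the smallest that 3 arrays against 3 can give. None is therefore past the threshold. With sham 2 and sham 3 averaged, LUM stood 2.11 above DCN, 0.71 above BGN and 3.38 above FMOD. The choice of DCN probe matters here, since the mean over all probes of a gene changed by 2.23 for LUM, 1.82 for BGN and 0.78 for DCN.

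Genes whose profile over the 6 arrays was most like that of a member are given as a description, among 7900 other named genes by Pearson correlation. For LUM and BGN, whose groups lay apart, the correlation mainly follows the difference between groups. The groups overlapped on the brightest DCN probe and on the FMOD probe, and none of the closest genes of DCN and FMOD passed. For LUM they were UBE2C, a ubiquitin-conjugating enzyme of dividing cells (r = 0.998), the collagen chain COL5A2 (r = 0.998) and the membrane-type metalloproteinase MMP16 (r = 0.995). For BGN they were the chemerin receptor CMKLR1, the cytokinesis protein ANLN and the neuron navigator NAV3 (r = 0.997, 0.997 and 0.995). For DCN they were the coat protein SEC13, the RNA polymerase subunit POLR1C and the zinc transporter SLC39A7 (r = 0.996, 0.989 and 0.989). FMOD was closest to the actin-binding filamin FLNA and to AFG1L and CUTC (each r = 0.987). Between members, the brightest probes of LUM and BGN correlated at r = 0.97, those of LUM and DCN at r = 0.70 and those of DCN and BGN at r = 0.77. FMOD correlated at r = -0.52 with LUM, -0.37 with BGN and 0.14 with DCN.

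Of 14 further genes of the small leucine-rich proteoglycan family, 8 had a probe and 6 were tested. In the fit to 6 arrays limma called 0 of the 6, where 8.82% of 7904 named genes passed by their brightest probe (6.14% higher and 2.68% lower). Of the 6 genes, 2 had an unadjusted p under 0.05. With sham 2 and sham 3 averaged limma also called 0, where 2.17% of tested probes passed. Their changes ran from -0.73 to 2.49 with a median of 0.14. KERA (keratocan), known mainly from the cornea, read -2.41, -1.87 and -2.44 in sham and 2.19, -0.48 and -0.94 in ligated arteries. All ligated arrays lay above all sham arrays, but ligated 1 stood far above the other ligated arrays, and the change of 2.49 ± 0.79 (SE) was not past the threshold (limma adjusted p = 0.102). PODN (podocan) had 0.69, 0.56 and 0.42 in sham and 1.09, 1.61 and 0.86 in ligated arteries (change 0.63, limma adjusted p = 0.160). OGN (osteoglycin or mimecan), abundant in vessel walls, read 7.40, 7.43 and 7.44 in sham and 6.81, 7.58 and 6.96 in ligated arteries. Its change was -0.31 (limma adjusted p = 0.446), and its 5 probes ran from -0.57 to 0.41, so they did not share a direction. OMD (osteomodulin) had a change of -0.73 (limma adjusted p = 0.393), with ligated 2 at -2.12 and ligated 1 and 3 at -0.24 and -0.27. PRELP changed by 0.18 (limma adjusted p = 0.726) and ECM2 by 0.09 (limma adjusted p = 0.818). The direction of OGN turned with quantile normalization and in the deposited value table, and those of PRELP and ECM2 turned with median centring. EPYC (epiphycan) was well above background on no sham array and on 2 ligated arrays with its brightest probe, and OPTC (opticin) on none, so neither was tested.

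EPYC, KERA, LUM and DCN follow one another on 1 chromosome of the RefSeq table with no other protein-coding gene between them. On oryCun2 the KERA probe lies at chr4:70267207-70267266 on the same strand as LUM and DCN. Within this row the brightest probes changed by 2.49 for KERA, 2.38 for LUM and 0.36 for DCN, of which the change of LUM passed. FMOD, PRELP and OPTC form another such row, and ECM2, ASPN, OMD and OGN one more. No tested gene in these rows other than LUM passed on its brightest probe, and ASPN had no probe with its symbol.

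Genes for the collagens that these proteoglycans bind, and for the enzymes that cross-link them, rose together with LUM and BGN. Of 14 tested genes on this list 11 rose and 0 fell, where 6.14% of named genes rose, and the median change was 1.84 beside 0.01 over named genes. COL1A1, a chain of type I collagen, rose by 3.02 ± 0.28 (SE), COL6A1, a chain of beaded-filament collagen, by 2.08, and the type V chains COL5A1 and COL5A2 by 1.88 and 1.70. For COL5A2 the sham arrays read 3.49, 3.76 and 3.74 and the ligated arrays 5.43, 5.43 and 5.23, so the groups were apart. After averaging of sham 2 and sham 3, 6 of the 14 passed, these 4 among them, and the count was 6 without sham 2 and 5 without sham 3. Both counts include COL5A3, which was well above background on no sham array and so entered the test through the ligated arrays, and the 11 also include LOXL4, above background on 2 of 3 sham arrays. When only probes above background on all 6 arrays were tested, 9 genes passed.

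Of 16 tested genes for enzymes that build and sulfate the chains 5 rose and 0 fell, where 6.14% of named genes rose. The median change of the 16 was 0.44. PAPSS2, which makes the sulfate donor of these chains, read 0.51, 0.26 and 0.30 in sham and 1.85, 1.75 and 1.80 in ligated arteries. All arrays of each group lay close together, the change was 1.44 ± 0.17 (SE, limma adjusted p = 0.00741), and all 5 of its probes passed. The chondroitin chain polymerising factor CHPF2 rose by 0.91 and the enzyme CSGALNACT2, which starts or extends these chains, by 0.99. CHSY3, a chondroitin synthase, rose by 2.12 on its brightest probe, a size that is uncertain because that probe was well above background on no sham array. It so entered the test through the ligated arrays. A filter to probes above background on all 6 arrays leaves this CHSY3 probe untested, and the others of the 5 passed there. DSE, the epimerase that turns chondroitin into dermatan sulfate, had a change of 0.67 (limma adjusted p = 0.0985). PAPSS2 alone passed with sham 2 and sham 3 averaged (adjusted p = 0.0468), and without sham 2, sham 3, ligated 1 or ligated 2 the count was 1, while it was 3 without sham 1.

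Other proteoglycans rose in part, with 6 of 12 tested genes higher, 0 lower and a median change of 1.21, where 6.14% of named genes rose. ESM1, a dermatan sulfate proteoglycan of endothelium, rose by 3.92 ± 0.50 (SE), and VCAN (versican), the large hyaluronan-binding proteoglycan, by 3.15 ± 0.48. The glypican GPC6 rose by 1.85 and CSPG5 by 1.33. The glypican GPC3 had a change of -0.18 and the pericyte proteoglycan CSPG4 one of -0.01, both not past the threshold. These were the 2 genes of the 12 with a change below 0, and 10 had an unadjusted limma p under 0.05. SDC2 (1.10), GPC4 (1.49), TGFBR3 (0.84) and SRGN (0.62) were higher but not past the threshold (limma adjusted p = 0.0558, 0.0643, 0.163 and 0.170). ESM1 alone passed with sham 2 and sham 3 averaged, and 1 gene passed when sham 2, sham 3 or ligated 2 was left out.

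Among proteases that cut these proteins or process collagen, and their inhibitors, 7 of 17 tested genes rose and 0 fell. Over all named genes 6.14% rose, and the median change of the list was 1.06. BMP1, which cleaves the propeptides of biglycan and of fibrillar procollagens, rose by 1.32 ± 0.17 (SE) and its enhancer PCOLCE by 2.09 ± 0.28. The inhibitor TIMP1 rose by 1.61. TIMP4, another inhibitor, had a change of -1.73, not past the threshold (limma adjusted p = 0.0734). It passed as lower when only probes above background on all 6 arrays were tested (limma adjusted p = 0.0477). With array weights it also passed as lower (limma adjusted p = 0.0464). The gelatinase MMP9 rose by 3.22, a size that is uncertain because only 2 of 3 sham arrays read it well above background, as was so for ADAMTS9, also among the 7. Of the ligands and receptors tied to these proteoglycans 4 of 24 rose and 0 fell, with a median of 0.28. FN1 (fibronectin) rose by 2.41 ± 0.24 on its brightest probe, the secreted matricellular protein CCN4 by 3.01, the receptor TGFBR2 by 2.19 and the integrin subunit ITGA2 by 2.66. The ITGA2 call on its brightest probe ended whichever 1 array was left out. All 4 ITGA2 probes passed in the fit to 6 arrays, with changes from 1.48 to 4.34. The ligands TGFB1, TGFB2 and TGFB3 had changes of 0.63, -0.04 and 0.20, and the biglycan receptors TLR2 and TLR4 had -0.37 and -0.21, none past the threshold (limma adjusted p from 0.386 to 0.965). The receptor P2RX7 on this list had a change of 1.97, also not past the threshold (limma adjusted p = 0.110). Without ligated 2 it passed, with a change of 2.74 (limma adjusted p = 0.0260). The cytokine TNF had a change of 1.63 (limma adjusted p = 0.0685), and its 5 probes ran from 1.63 to 1.79. It passed as higher with quantile normalization, the deposited table, the filter on all 6 arrays, trend and robust variances, array weights and the replicate block. Of the 24 genes, 8 had an unadjusted limma p under 0.05. PCOLCE and FN1 alone passed on these lists with sham 2 and sham 3 averaged. Leaving out sham 2 left 1 protease or inhibitor, leaving out ligated 2 left 3, and leaving out sham 3 left 0, with 8 at an unadjusted limma p below 0.05. Of receptors and ligands, 1 passed without sham 2 and 2 passed when sham 3, ligated 1 or ligated 2 was left out.

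**Figure D4:**
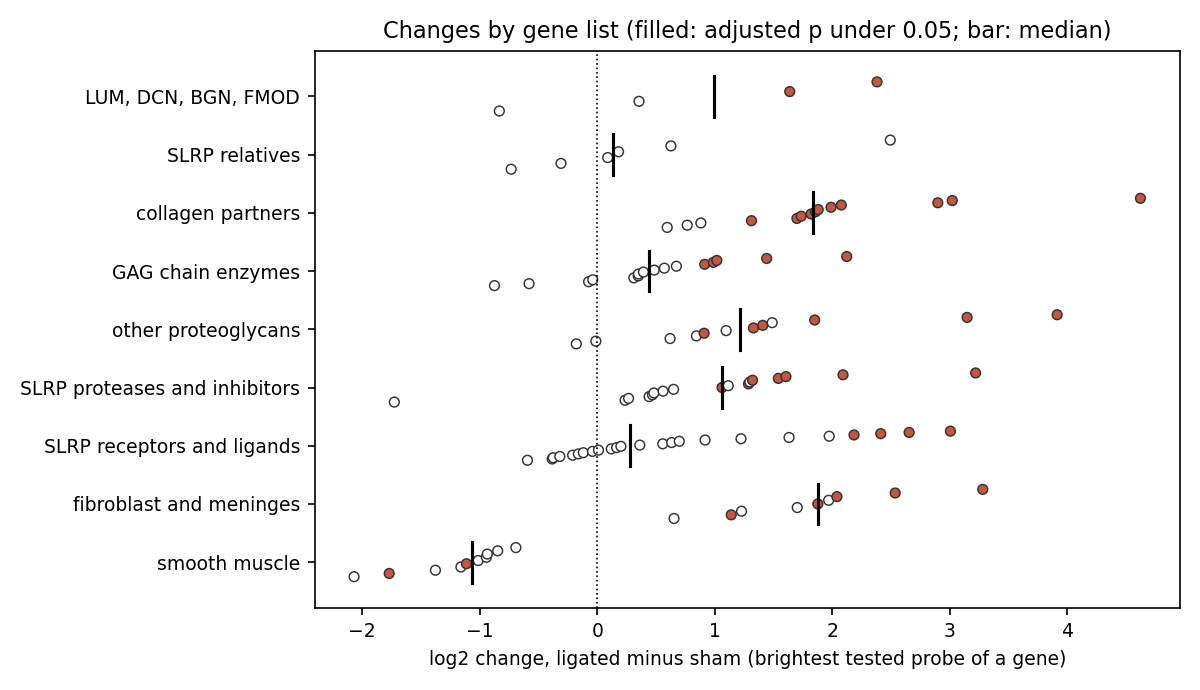
Log2 change, ligated minus sham (horizontal axis), of each tested gene on its brightest probe, by list. Filled points have an adjusted p under 0.05 and bars are list medians. In the collagen list 11 of 14 points are filled, in the list of family relatives none of 6, and smooth muscle markers lie below 0.

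Markers of other cells moved beside these genes. Over all named genes 6.14% rose and 2.68% fell. Of 18 markers of fibroblasts and meninges (with the 4 proteoglycans left out) 9 had a probe, and of these 5 rose and 0 fell, with a median change of 1.88. They were ALDH1A2, which makes retinoic acid in meninges (2.54), its binding protein CRABP2 (1.14), the transporter SLC6A13 (2.04), the secreted SERPINF1 (1.88) and the microfibril protein MFAP5 (3.28, well above background on 2 of 3 sham arrays). ALDH1A2 alone passed with sham 2 and sham 3 averaged. Summed over the 9 genes, in multiples of the 75th percentile signal, the marker level was 9.06 to 10.705 on sham and 16.9 to 39.0 on ligated arrays. The sum also holds the 4 genes that did not pass. One of them, DPT (limma adjusted p = 0.178), read 0.28, 0.09 and 0.51 in sham and 4.03, 2.24 and 0.51 in ligated arteries. Of 10 tested smooth muscle markers 0 rose and 2 fell, SMTN by 1.77 and DES by 1.11 on the log2 scale, with a summed level of 1321 to 2148 on sham and 488 to 1099 on ligated arrays. SMTN passed alone with sham 2 and sham 3 averaged. All 7 tested genes of dividing cells rose, also with that averaging, CDK1, UBE2C, NUSAP1 and BUB1 by 3.96, 4.06, 3.09 and 3.32. The size for BUB1 is uncertain, since 1 of 3 sham arrays read it well above background. The part of fibroblast number, of muscle cell number and of cell division in the changes of LUM, BGN and DCN was not tested.

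Markers of endothelium, macrophages, lymphocytes, neutrophils, red cells and neurons gave 0 calls in limma among 21 tested genes, of which 2 had an unadjusted p under 0.05. Their summed levels overlapped between groups in each of these lists, with 51.9 to 105 on sham and 55.6 to 141 on ligated arrays for endothelium, 6.66 to 12.99 and 6.67 to 21.3 for macrophages, and 189 to 389 and 28.5 to 668 for red cells. The 2 with the smallest p in each list were ESAM (-0.91) and CLDN5 (-0.97) for endothelium, and ITGAM (1.05) and MRC1 (1.17) for macrophages. They were CD3E (-0.87) and CD2 (-1.21) for lymphocytes, S100A9 (1.80) and MPO (0.25) for neutrophils, and HBB2 (-1.88) and ALAS2 (-2.12) for red cells. The neuronal SYT1 had -1.42. In 4 of these genes, CD3E, CD2, ALAS2 and SYT1, the sign turned with the normexp background correction over all spots, and in MPO with array weights. With normexp without the spots of high local background the 4 kept their sign (-0.030, -0.65, -0.18 and -0.19). The endothelial KDR, the T cell gene CD4, the red cell gene SLC4A1 and the glial GFAP and AQP4 were tested on no probe, being well above background on too few arrays.

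The count of proteoglycan probes called depended on the processing more than the direction of their changes did. It was 10 as reported, 11 with quantile normalization, 6 with median centring and 5 with the replicate number as a block. It was 2 with sham 2 and sham 3 averaged and 0 with normexp over all spots. Normexp without the spots of high local background (0 to 20 an array) gave 10. No proteoglycan probe changed sign under any of these alternatives.

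**Figure D5:**
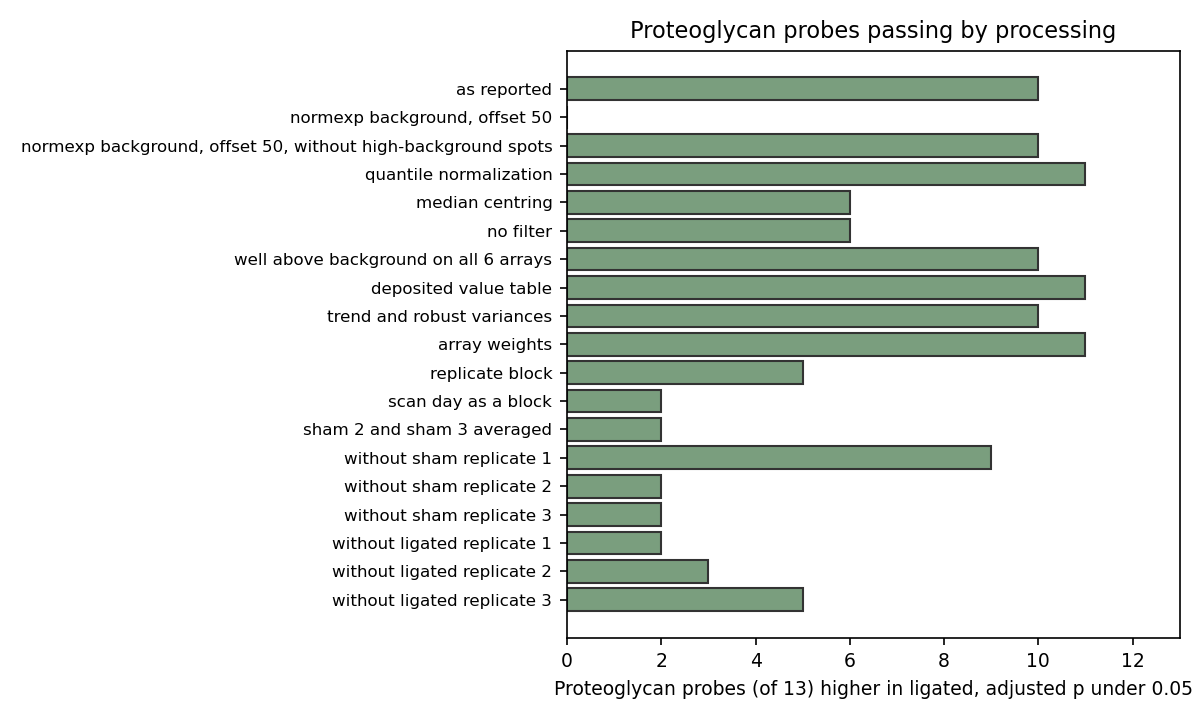
Number of the 13 proteoglycan probes higher in ligated arteries at an adjusted p under 0.05 (horizontal axis), under each processing alternative (vertical axis). The count is 10 as reported, 11 with quantile normalization and in the deposited value table, and 2 with sham 2 and sham 3 averaged. It is 0 with the normexp correction over all spots and 10 with that correction without the high-background spots.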

How the data were processed

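Labelled RNA was hybridised to 6 one-colour Agilent rabbit arrays, 3 sham and 3 ligated. The authors' deposited scanner files, made with Agilent Feature Extraction 10.7 per the submitters' processing notes, hold a background-corrected intensity per spot. The authors' deposited value table holds log2 values, made in a way that the sources do not give. It was used as an alternative.

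Outlier-marked spots were left out, repeated spots averaged, and the 75th percentile of the log2 intensity subtracted per array. Probes well above background on at least 3 of 6 arrays entered two-sided limma tests (limma 3.58.1, R 4.3.3), called at a Benjamini-Hochberg p below 0.05 across the tested probes. The script was tested on simulated data. The probe with the highest mean signal stood for a gene. Of 43603 probes, 24053 had 1 symbol, from the files or by RefSeq identifiers (mOryCun1.1), 15 had several and 19535 none.

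The 4 proteoglycans and all lists were chosen with earlier results of these data known. Named were all probes of the 4 genes, all relatives with a probe, up to 4 passing genes a list with the smallest p (or 2 where none passed), and the 3 genes with the most similar profile. DSE, GPC3, CSPG4, MFAP5, DPT, COL5A3, LOXL4, ADAMTS9, TIMP4, TGFB1, TGFB2, TGFB3, TLR2, TLR4, P2RX7, MYH11, ACTA2 and the markers listed as not tested were added after their values were seen. So were SDC2, GPC4, TGFBR3, SRGN and TNF. No label says that the replicate numbers pair the rabbits, so the numbers were not taken as pairs. The deviations of same-numbered arrays correlated at 0.43, -0.57 and 0.58, and those of unlike numbers at -0.68 to 0.66. Alternatives covered background, scaling, filter, variance model, blocks, averaging and leave-outs.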

Additional observations from a re-analysis of the deposited data

How the results depend on the processing

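Under the 18 or 19 alternatives tried, LUM on its standing probe passed in all but normexp over all spots (2.18, adjusted p = 0.789), with 2.31 to 2.43 in the leave-outs. BGN kept its direction but did not pass with that normexp (1.52), the scan day as a block (1.68) or sham 2 and sham 3 averaged (1.71), and ran from 1.495 to 1.85 in the leave-outs. DCN passed only as the mean of its probes (0.78, adjusted p = 0.0497), and FMOD in none. Day 2 held sham 3 alone, so that block gave the counts found without sham 3.

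Probes passing numbered 2290 as reported, 1524 without the filter, 5980 with array weights, 1295 with the replicate block, 552 with the scan day, 595 with averaging and 552 to 2269 in the leave-outs. Normexp over all spots gave 0 in limma (615 at an unadjusted p under 0.05), against 2378 without the spots of high local background (0 to 20 an array). Of the 13 proteoglycan probes 10 passed as reported, 0 with normexp over all spots (5 unadjusted) and 10 with normexp without the high-background spots. The count was 6 with median centring, 6 without the filter and 5 with the replicate block. It was 2 with the scan day, 2 with averaging and 2 to 9 in the leave-outs. The share of higher calls was 68.3% as reported, 52.2% with median centring, 55.2% with array weights, 56.3% with normexp without high-background spots, 78.6% without the filter, 81.8% with the replicate block, 87.3% with the scan day and 86.6% with averaging. The median change of all tested probes was 0.01 as reported, 0.21 with normexp and -0.19 with median centring.

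In the order normexp, scan day, averaging and leave-outs, genes passing were 0 (8 unadjusted), 5, 6 and 5 to 10 for collagen partners, 0 (1 unadjusted), 1, 1 and 1 to 5 for chain enzymes, and 0 (2 unadjusted), 1, 1 and 1 to 5 for other proteoglycans. They were 0 (2 unadjusted), 0 (8 unadjusted), 1 and 0 to 9 for proteases, and 0 (4 unadjusted), 2, 1 and 1 to 3 for receptors and ligands. Median centring gave 2 chain enzymes and 3 other proteoglycans, the replicate block 2 and 3, no filter 2 chain enzymes, and array weights 7 receptors and ligands and 2 relatives (KERA and PODN). Signs turned for ALAS2 (0.36), CD2 (0.10), CD3E (0.63) and SYT1 (0.42) with normexp over all spots, and for MPO with array weights (-0.15). They turned for OGN with quantile normalization (0.11) and the deposited table (0.12), and for PRELP with median centring (-0.017) and without ligated 1 (leave-outs -0.040 to 0.47). For ECM2 they turned with median centring (-0.11), array weights (-0.054) and without sham 1 or ligated 3 (leave-outs -0.079 to 0.19). The cause was not tested, apart from the high-background spots. The replicate number as a block is no pairing given by the labels. Array number and a slide for each group limit every value.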
